A study of Homo sapiens with 9 samples.

Results

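The 35 genes described here encode the protein-folding machinery of the endoplasmic reticulum (ER), the sensors and transcription factors of the unfolded protein response, and the parts of the ER that import proteins or remove misfolded ones. They were taken by gene symbol from a list of names, with no cutoff on their values. The list was chosen with earlier results of these data known. Of the 35, 34 had a row among the 24204 gene symbols of the FPKM table, and DERL3 had none. FPKM is the number of sequenced fragments of a gene, scaled for its length and for the depth of the library. A total of 33 members reached 1 FPKM in at least 3 of the 9 libraries and were tested, and EDEM2 did not reach that level.

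The RNA came from HepG2, an established human hepatocellular carcinoma cell line. Cells were infected with lentivirus that expressed a control hairpin (Ctrl_shRNA in the labels, shCtrl here) or 1 of 2 hairpins against TRIB3 (TRIB3 sh1 and TRIB3 sh2, here shTRIB3-1 and shTRIB3-2). All 3 groups were infected for 48 h and selected with puromycin for a further 48 h, with 3 libraries a group. The groups are pools of selected cells that carry stably integrated vectors, the control group included, and the labels do not say whether libraries of a group came from separate cultures, so that p-values measure only the spread between these samples, which may be technical. The labels name high-glucose DMEM with 10% serum and no withdrawal of glutamine (Gln). The methods of the study describe RNA from Gln-deprived cells, in a section that also covers its Gln-deprivation RNA-seq. The study's discussion speaks of altered DNA repair genes after TRIB3 depletion without Gln deprivation. The medium at harvest of these libraries is not stated in the methods and stays uncertain.

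As background, proteins bound for secretion enter the ER through the SEC61 channel and fold there with the help of HSP70- and HSP90-type chaperones, the lectins calnexin and calreticulin, and protein disulfide isomerases. Hepatocytes secrete most plasma proteins and carry a large ER. When unfolded proteins build up, the membrane sensors IRE1 (ERN1), ATF6 and PERK (EIF2AK3) are activated. IRE1 splices XBP1 mRNA, ATF6 is cleaved to a transcription factor, and both raise genes of chaperones and of ER-associated degradation (ERAD), while PERK slows translation and raises ATF4. Gene-level FPKM cannot tell spliced from unspliced XBP1, and mRNA levels do not measure the activation of ATF6.

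Genes of this response are classically recognised by short promoter elements. The ER stress response element (ERSE) is CCAAT and CCACG separated by 9 bases, ERSE-II is ATTGG and CCACG separated by 1 base, and the unfolded protein response element (UPRE) searched here is TGACGTGG. RefSeq promoter windows (GRCh38.p14, 250 bases before to 50 after a transcription start) were available for 32 of the 35 members, and PDIA3, DERL1 and DERL3 had none. On either strand, ERSE was found in 27 of 35116 windows (0.0769%) and ERSE-II in 19 (0.0541%), and 8 and 3 members held them. UPRE was found in 256 windows (0.729%) and in 2 members, HYOU1 and TXNDC5. The shared core CCACG alone was found in 38.1% of windows and in 23 members. The matches of the 11 members with an ERSE or ERSE-II are shown with 5 bases on either side, since these members are described as a group further on. They are written 5′ to 3′ on the strand of the gene, and capitals mark the 2 boxes of each element (CGTGG is CCACG, and ATTGG is CCAAT, read on the opposite strand).

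The 9 ERSE matches shown and the 4 ERSE-II matches were these.
HSPA5: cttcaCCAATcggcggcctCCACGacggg
XBP1: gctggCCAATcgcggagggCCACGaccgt
HSP90B1 distal: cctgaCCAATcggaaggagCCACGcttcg
HSP90B1 proximal: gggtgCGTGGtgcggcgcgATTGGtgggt
CALR: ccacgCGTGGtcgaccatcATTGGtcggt
CANX: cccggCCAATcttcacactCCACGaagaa
CRELD2: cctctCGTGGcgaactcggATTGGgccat
PDIA6: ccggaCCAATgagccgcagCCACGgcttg
ERO1B: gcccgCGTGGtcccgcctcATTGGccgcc
HYOU1 distal: ccccgTGACGTGGtCCAATcccag
HYOU1 proximal: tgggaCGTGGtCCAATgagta
HERPUD1: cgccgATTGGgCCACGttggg
SDF2L1: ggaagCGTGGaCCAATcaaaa

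These stretches lie at chr9:125241386-125241414 (minus strand) for HSPA5, chr22:28800598-28800626 (minus strand) for XBP1, chr12:103930211-103930239 (plus strand) and chr12:103930316-103930344 (plus strand) for HSP90B1, chr19:12938379-12938407 (plus strand) for CALR, chr5:179698773-179698801 (plus strand) for CANX, chr22:49918549-49918577 (plus strand) for CRELD2, chr2:10812848-10812876 (minus strand) for PDIA6 and chr1:236282178-236282206 (minus strand) for ERO1B. The ERSE-II stretches lie at chr11:119057375-119057398 (minus strand) and chr11:119057269-119057289 (minus strand) for HYOU1, chr16:56932020-56932040 (plus strand) for HERPUD1 and chr22:21642109-21642129 (plus strand) for SDF2L1. In HYOU1 the distal ERSE-II overlaps the UPRE, which is also in capitals. Counted from the start, the ERSE runs from -52 to -34 in XBP1, from -66 to -48 in HSPA5, from -80 to -62 in CRELD2 and from -86 to -68 in PDIA6, whereas those of CALR (-225 to -207) and ERO1B (-243 to -225) lie farther upstream. A match of letters is a description and does not show that a factor binds there.

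**Figure D1:**
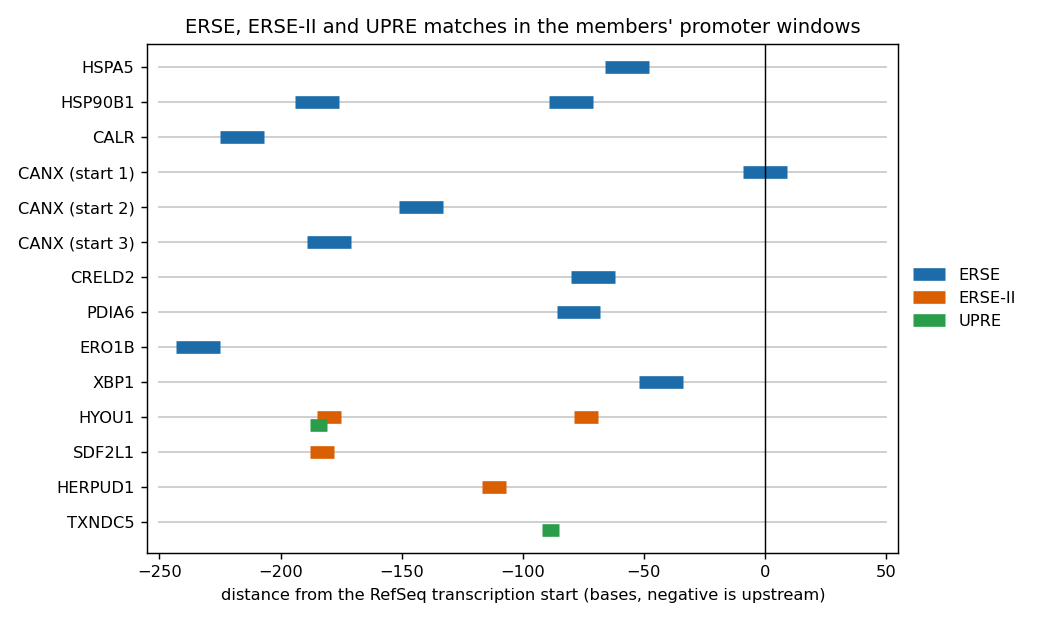
Positions of ERSE (blue), ERSE-II (orange) and UPRE (green) matches in the RefSeq promoter windows of 12 members, as the distance in bases from the transcription start at 0, with one grey line per window. The CANX match lies in 3 windows because CANX has 3 annotated starts near it; all other ERSE and ERSE-II matches are upstream of the start.

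Before the members, the labels were checked by TRIB3 itself, a stress-induced pseudokinase. TRIB3 was measured at 67.9, 65.8 and 66.6 FPKM with shCtrl, 34.1, 32.7 and 34.0 with shTRIB3-1 and 20.6, 20.7 and 20.4 with shTRIB3-2, so that the hairpins left 50.3% and 30.8% of the shCtrl mean and the 3 groups did not overlap. Library totals, recovered from the steps in the FPKM values, ran from 34206726 to 36311029 fragments. All 11 hepatocyte and HepG2 markers (ALB and AFP among them) reached 1 FPKM in at least 3 libraries, none of 5 fibroblast and 4 endothelial markers did, and of 5 leukocyte markers LYZ and CD68 did while PTPRC, CD3E and CD14 did not. The summed FPKM of the 11 hepatocyte markers ranged from 9666 to 10278 over the shCtrl libraries, from 9852 to 10255 over those of shTRIB3-1 and from 11966 to 12325 over those of shTRIB3-2, and its part in the values of the members was not tested. The summed level of the 5 leukocyte markers, almost wholly LYZ and CD68, ranged from 1056 to 1177 FPKM over shCtrl, from 532 to 559 over shTRIB3-1 and from 611 to 650.3 over shTRIB3-2. PTPRC, CD3E and CD14 stayed at or below 1.27 FPKM. Of the CD68 exon bases in GENCODE v44, 81.6% are shared with a gene of the same strand, and 34.7% of those of LYZ lie opposite another gene.

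In control cells the members spanned a wide range. CALR (calreticulin) led at 778 ± 3.56 FPKM (mean ± SD, n = 3), rank 48 of all 24204 symbols, ahead of P4HB at 723 ± 6.21, HSP90B1 at 507 ± 26.0, HSPA5 at 373 ± 15.7 and CANX at 302 ± 10.5. The libraries of these 5 genes did not overlap with those of the next gene in the order, whereas PDIA6 (254 ± 15.4 FPKM), XBP1 (245 ± 4.26) and PDIA4 (237 ± 4.57) overlapped, PDIA6 with XBP1 and XBP1 with PDIA4. XBP1 thus stood among the folding enzymes in level, while the mRNAs of the sensors were scarce at 7.40 ± 0.158 FPKM for ATF6 and 3.14 ± 0.189 for ERN1. Lowest were TXNDC5, ERO1B and EDEM2 at 2.15 ± 0.379, 2.06 ± 0.126 and 0.714 ± 0.101 FPKM. FPKM is per length of the gene as the authors set it, and another length would move a gene's place in this order but not its fold change.

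Summed over the members, the libraries held 4614, 4767 and 4835 FPKM in shCtrl, 4028, 3904 and 4069 in shTRIB3-1, and 3868, 3808 and 3721 in shTRIB3-2. The 3 groups did not overlap, and the sums with the hairpins were 84.4% and 80.2% of the shCtrl mean. As a percentage of all FPKM of a library the hairpin groups did overlap, at 1.23% to 1.30% with shCtrl, 1.00% to 1.05% with shTRIB3-1 and 0.977% to 1.03% with shTRIB3-2, all knockdown libraries below shCtrl. In each group most of the sum came from the same 6 genes (P4HB, CALR, HSP90B1, HSPA5, CANX and PDIA6, 61.8% to 62.5% as group means), so that the sum describes these and not the typical member. In bulk RNA, fewer cells of a type and less RNA per cell cannot be told apart.

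Gene by gene, the members were split between the directions. With shTRIB3-1, 9 of the 33 tested members rose and 18 fell at an adjusted p under 0.05, and 6 did not pass (limma on log2(FPKM + 0.1), two-sided, Benjamini-Hochberg over 11265 genes). Across all 11265 tested genes the same rule called 32.9% higher and 41.5% lower. With shTRIB3-2, 9 rose, 19 fell and 5 did not pass, against 35.4% and 40.5% of all tested genes. In percent, 54.5% and 57.6% of the tested members fell and 27.3% rose with either hairpin. Both comparisons use the same 3 shCtrl libraries, so that they are not independent and their values are given side by side.

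Most changes were moderate. The median log2 fold change of the tested members was -0.15 with shTRIB3-1 and -0.18 with shTRIB3-2, beside -0.056 and -0.035 for all tested genes. An absolute change over 1 on the log2 scale together with an adjusted p under 0.05 was found for 0 of 33 members with shTRIB3-1 and for 1, PDIA4, with shTRIB3-2, where 11.5% and 12.3% of all tested genes passed that rule. No member reached that fold with shTRIB3-1 at any p, with PDIA4 just short of it at -0.998, and the count of 0 became 1 without shCtrl replicate 1, shTRIB3-1 replicate 1 or shTRIB3-1 replicate 3, and with TPM rescaling or quantile normalization. Over 0.5 on the log2 scale in either direction stood 7 members (21.2%) with shTRIB3-1 and 8 (24.2%) with shTRIB3-2, against 32.8% and 34.6% of all tested genes.

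**Figure D2:**
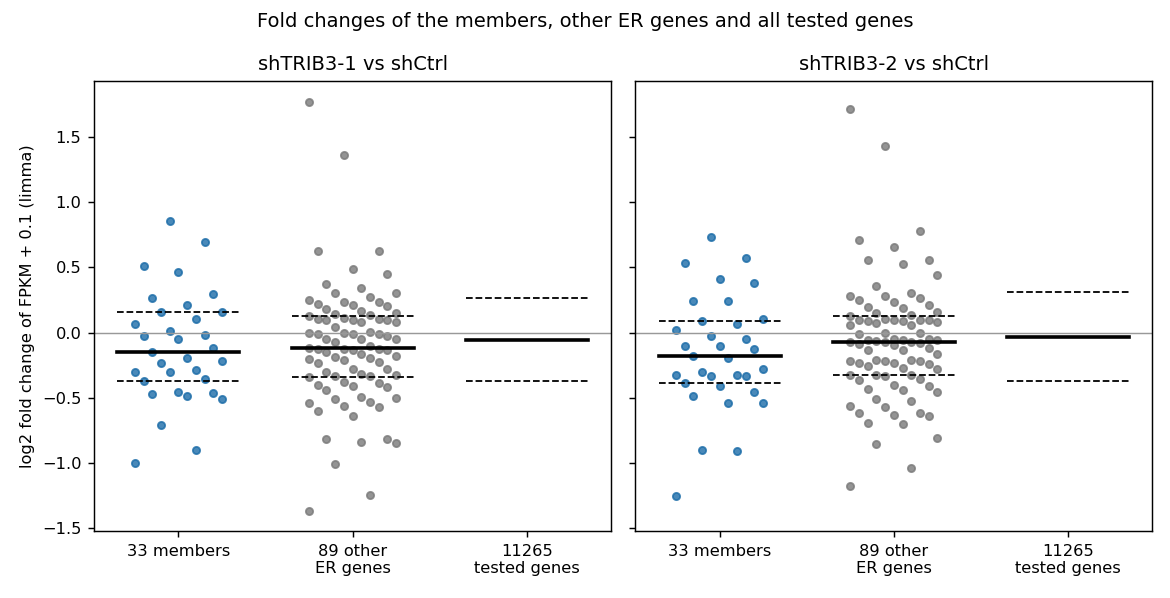
Log2 fold changes against shCtrl (points) of the 33 tested members and of 89 other ER genes, with the median (thick line) and quartiles (dashed lines) of each list and of all 11265 tested genes. The member medians are -0.15 and -0.18, and the points of both lists lie on either side of 0.

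**Figure D3:**
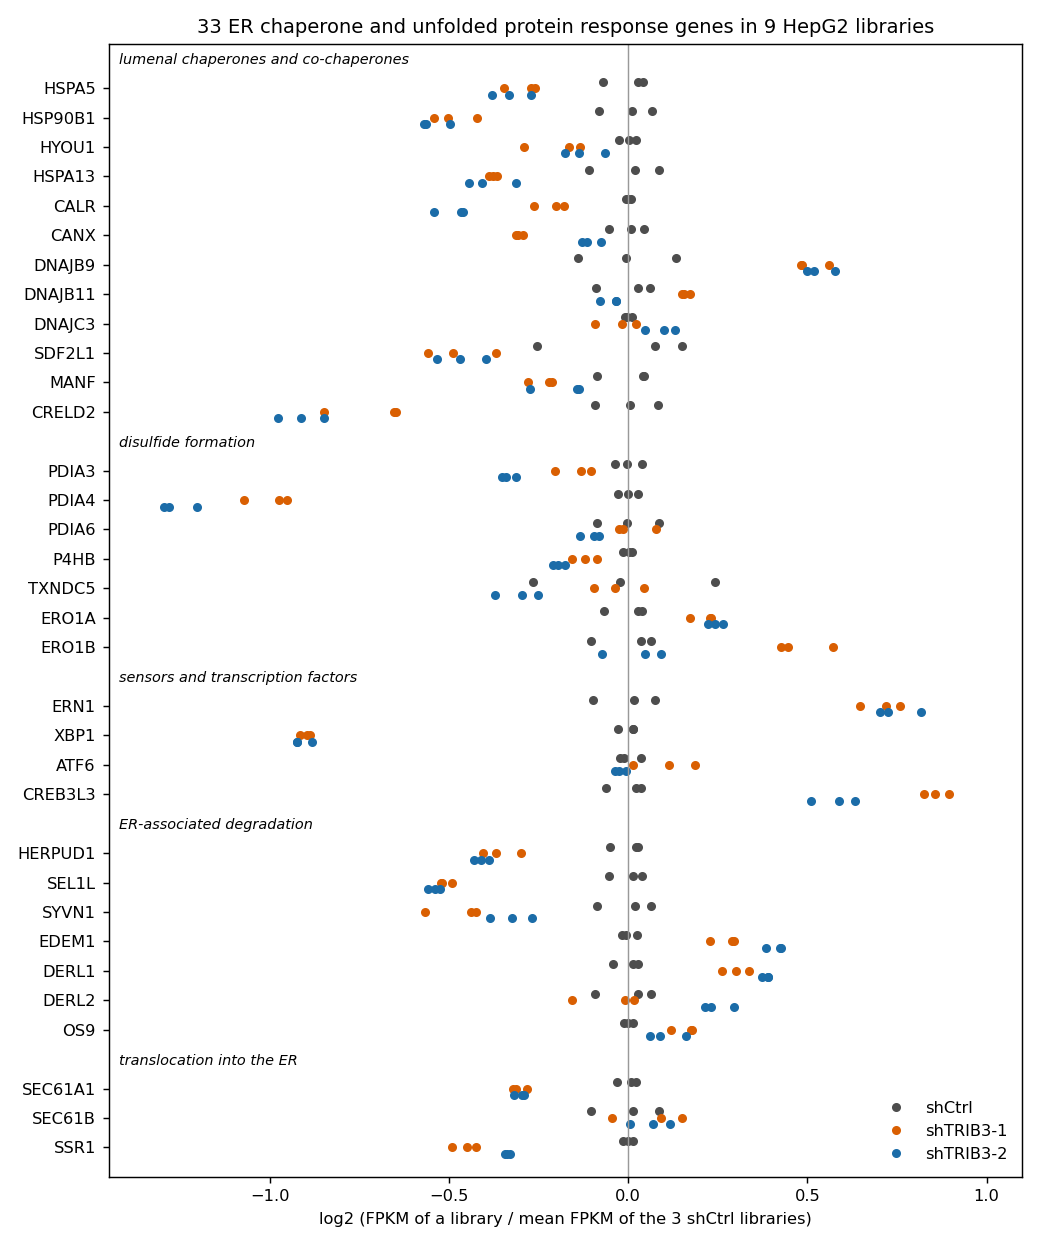
FPKM of each library relative to the mean of the 3 shCtrl libraries, on a log2 scale, for the 33 tested members grouped by role, with 3 points a group. PDIA4, XBP1 and CRELD2 lie farthest to the left and CREB3L3, ERN1 and DNAJB9 farthest to the right.

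Among the sensors and transcription factors, ERN1 and CREB3L3 rose and XBP1 fell with both hairpins, and ATF6 did not pass the test. ERN1 encodes IRE1, the kinase and endoribonuclease that splices XBP1 mRNA. It was measured at 2.93, 3.31 and 3.17 FPKM with shCtrl, 4.92, 5.16 and 5.31 with shTRIB3-1 and 5.52, 5.11 and 5.18 with shTRIB3-2. Each knockdown library lay above every shCtrl library and the hairpins overlapped. ERN1 rose by 0.69 ± 0.064 (log2, SE; adjusted p = 8.4e-07) with shTRIB3-1 and by 0.73 ± 0.064 (adjusted p = 4.5e-07) with shTRIB3-2, to 163% and 168% of shCtrl.

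XBP1, the transcription factor whose mRNA IRE1 splices, was measured at 239.7, 247 and 247 FPKM with shCtrl, 129.6, 131 and 132 with shTRIB3-1 and 129, 133 and 129 with shTRIB3-2. The 6 knockdown libraries lay close together and far below shCtrl, the group means at 53.6% and 53.2% of its mean. XBP1 fell by 0.90 ± 0.027 (log2, SE; adjusted p = 5.3e-11) with shTRIB3-1 and by 0.91 ± 0.027 (adjusted p = 3.5e-11) with shTRIB3-2. These values rest on 16600 to 17359 fragments a library in shCtrl and 8531 to 8939 in shTRIB3-2.

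CREB3L3, a liver-enriched, ER-anchored transcription factor that is cleaved as ATF6 is, was measured at 24.3, 24.5 and 22.9 FPKM with shCtrl, 44.4, 43.3 and 42.3 with shTRIB3-1 and 37.1, 35.9 and 34.0 with shTRIB3-2. The 3 groups did not overlap, and shTRIB3-1 was the highest. CREB3L3 rose by 0.86 ± 0.040 (log2, SE; adjusted p = 1.9e-09) and 0.58 ± 0.040 (adjusted p = 6.1e-08). ATF6, the sensor that is itself cleaved in the Golgi, was measured at 7.33, 7.29 and 7.58 FPKM with shCtrl, 8.02, 8.43 and 7.47 with shTRIB3-1 and 7.27, 7.36 and 7.22 with shTRIB3-2. Its groups overlapped with shCtrl, and its values on the log2 scale of 0.10 ± 0.051 and -0.022 ± 0.051 did not pass (adjusted p = 0.082 and 0.70). Without shTRIB3-1 replicate 3 the first of these became 0.15 and passed, as it did with median centring (0.18), quantile normalization (0.18) and voom (0.11).

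**Figure D4:**
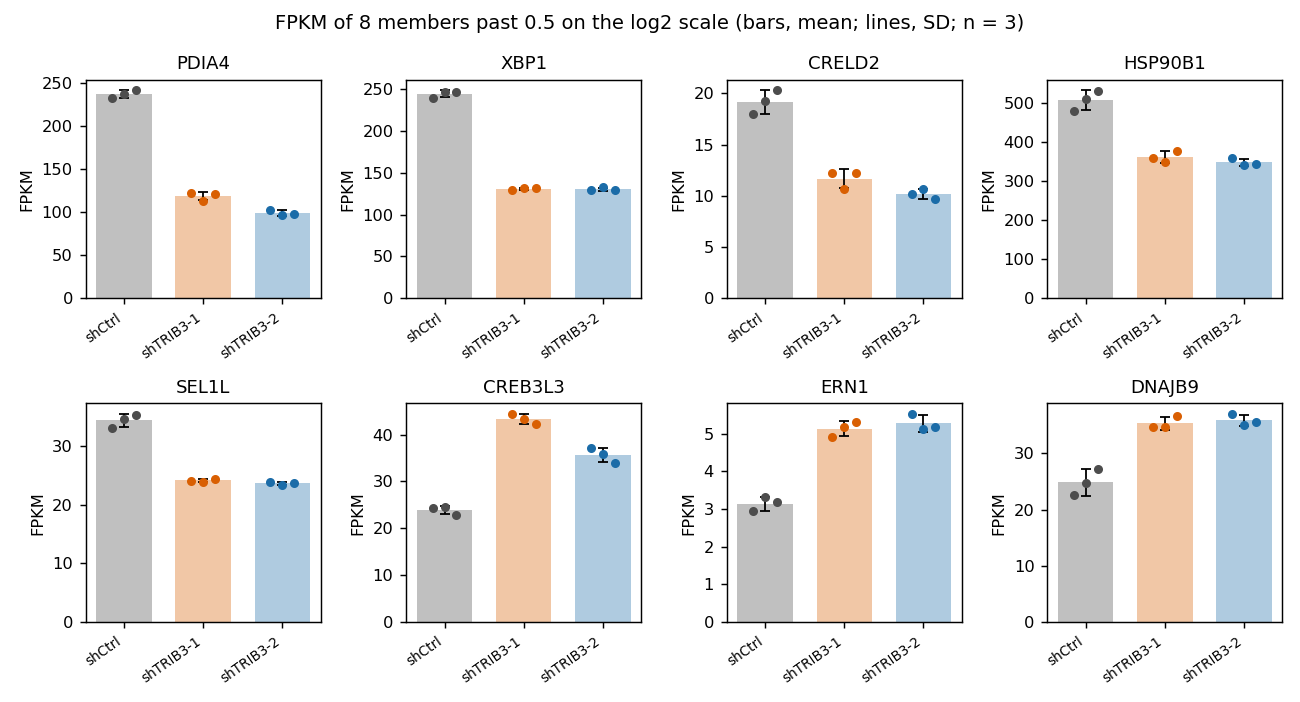
FPKM of the 8 members whose absolute log2 fold change passed 0.5 with an adjusted p under 0.05 with either hairpin (points, libraries; bars, mean; lines, SD; n = 3 a group). PDIA4, XBP1, CRELD2, HSP90B1 and SEL1L are lower in all 6 knockdown libraries, and CREB3L3, ERN1 and DNAJB9 are higher.

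Of the 12 lumenal chaperones and co-chaperones, 9 fell and 2 rose with each hairpin, where 41.5% and 40.5% of all tested genes fell and 32.9% and 35.4% rose. Their median log2 fold changes were -0.26 and -0.25. HSPA5 (BiP), the main HSP70-type chaperone of the ER and the protein that holds the sensors inactive, was measured at 355, 379 and 383 FPKM with shCtrl, 309, 293 and 311 with shTRIB3-1 and 309, 296 and 286 with shTRIB3-2. Every knockdown library lay below every shCtrl library. HSPA5 fell by 0.29 ± 0.041 (log2, SE; adjusted p = 3.6e-05) and 0.33 ± 0.041 (adjusted p = 1.2e-05), to 81.7% and 79.7% of shCtrl.

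HSP90B1 (GRP94), the HSP90-type chaperone of the ER, was measured at 479.8, 511 and 531 FPKM with shCtrl, 358, 349 and 378 with shTRIB3-1 and 359, 342 and 343 with shTRIB3-2. The knockdown groups overlapped with each other and lay below shCtrl, at 71.3% and 68.6% of its mean, and HSP90B1 fell by 0.49 ± 0.044 and 0.54 ± 0.044 (log2, SE; limma adjusted p = 6.5e-07 and 2.1e-07). With quantile normalization the shTRIB3-2 value of HSP90B1 was -0.33 and still passed. CRELD2, an ER-stress-inducible protein of the ER and secretory path, had the largest fall of this role at 18.0, 19.2 and 20.3 FPKM with shCtrl, 12.2, 10.6 and 12.2 with shTRIB3-1 and 10.2, 10.6 and 9.72 with shTRIB3-2. Its knockdown libraries all lay below shCtrl, with shTRIB3-1 and shTRIB3-2 meeting at 10.6 FPKM, and CRELD2 fell by 0.71 ± 0.063 and 0.91 ± 0.063 (adjusted p = 5.7e-07 and 5.4e-08).

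CALR, the soluble lectin chaperone, averaged 778 ± 3.56 FPKM with shCtrl, 671 ± 19.97 with shTRIB3-1 and 554 ± 17.4 with shTRIB3-2 (SD, n = 3), and its 3 groups did not overlap. CALR fell by 0.21 and 0.49 (log2, limma adjusted p = 0.00013 and 6.9e-08), values that were -0.10 and -0.24 with quantile normalization and still passed. CANX (calnexin), its membrane-bound counterpart, averaged 302 ± 10.5 FPKM with shCtrl, 245 ± 1.74 with shTRIB3-1 and 281 ± 5.46 with shTRIB3-2. CANX fell by 0.30 and 0.11 (adjusted p = 2.8e-06 and 0.0092), so that the order of the hairpins was opposite for the pair of lectins, and with median centring the shTRIB3-2 value of CANX was -0.054 and did not pass. SDF2L1, which keeps DNAJB11 in the chaperone complex, fell by 0.46 and 0.46 (adjusted p = 0.00041 and 0.00043) from 31.9, 40.1 and 42.2 FPKM in shCtrl, where 1 of the 3 libraries lay well below the other two.

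HSPA13, a microsomal HSP70-like protein, fell by 0.37 and 0.38 (adjusted p = 2.9e-05 and 2.1e-05) from 20.9 ± 1.42 FPKM. MANF, a small secreted protein that binds HSPA5, fell by 0.24 and 0.18 (adjusted p = 0.00049 and 0.0028) from 112 ± 5.76 FPKM. HYOU1, a large HSP70-like exchange factor of HSPA5, fell by 0.20 and 0.13 (adjusted p = 0.0012 and 0.017) from 102 ± 1.69 FPKM. The second of these HYOU1 values did not pass without shTRIB3-2 replicate 3 (-0.10) or with median centring (-0.075), and was -0.19 with quantile normalization. Median centring also took the shTRIB3-1 values of HYOU1 and MANF to -0.12 and -0.16, which still passed.

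The J-domain co-chaperones of HSPA5 went differently. DNAJB9, which also binds IRE1 together with HSPA5, was measured at 22.5, 24.7 and 27.2 FPKM with shCtrl, 34.7, 34.8 and 36.6 with shTRIB3-1 and 37.0, 35.1 and 35.6 with shTRIB3-2. All knockdown libraries lay above shCtrl, and DNAJB9 rose by 0.51 ± 0.057 and 0.53 ± 0.057 (log2, SE; limma adjusted p = 4.7e-06 and 2.9e-06). DNAJB11, which hands unfolded proteins to HSPA5, averaged 81.3 ± 4.42 FPKM with shCtrl, 90.9 ± 0.711 with shTRIB3-1 and 78.6 ± 1.42 with shTRIB3-2. DNAJB11 rose with shTRIB3-1 (0.16, adjusted p = 0.0019) and did not pass with shTRIB3-2 (-0.048, adjusted p = 0.26), and without shCtrl replicate 1 the latter was -0.093 and passed as a fall. With TPM rescaling the shTRIB3-1 rise was 0.11. DNAJC3, a co-chaperone that was first described as an inhibitor of eIF2α kinases, averaged 29.1 ± 0.213 FPKM with shCtrl, 28.6 ± 1.16 with shTRIB3-1 and 31.1 ± 0.906 with shTRIB3-2. Its value of -0.029 with shTRIB3-1 did not pass (adjusted p = 0.49). With shTRIB3-2 DNAJC3 rose by 0.092 (adjusted p = 0.039), a call that was lost without shCtrl replicate 1, 2 or 3 or shTRIB3-2 replicate 1 or 3, where the value lay between 0.073 and 0.098. It was also lost with TPM rescaling (0.069), with quantile normalization (0.076) and when all genes above 0 were tested, whereas with median centring the rise was 0.14.

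Of the 7 genes of disulfide formation, 3 fell and 2 rose with shTRIB3-1, and 4 fell and 1 rose with shTRIB3-2. Of all tested genes, 41.5% and 40.5% fell and 32.9% and 35.4% rose. PDIA4, a disulfide isomerase with an additional thioredoxin domain, changed most of all members and was measured at 233, 237 and 242 FPKM with shCtrl, 123, 113 and 121 with shTRIB3-1 and 103, 96.7 and 97.7 with shTRIB3-2. The 3 groups did not overlap, with shTRIB3-2 the lowest, at 41.8% of the shCtrl mean beside 50.1% for shTRIB3-1. PDIA4 fell by 1.00 ± 0.038 (log2, SE; adjusted p = 2.9e-10) and 1.26 ± 0.038 (adjusted p = 3.3e-11). These values rest on 23285 to 24227 fragments a library in shCtrl and 9404 to 9864 in shTRIB3-2.

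The other isomerases moved less. PDIA3, which works with CALR and CANX on glycoproteins, averaged 185 ± 4.78 FPKM with shCtrl, 167 ± 6.002 with shTRIB3-1 and 146 ± 2.16 with shTRIB3-2 and fell by 0.15 and 0.34 (limma adjusted p = 0.0017 and 1.6e-06). P4HB, the founding member of the isomerase family, averaged 723 ± 6.21 FPKM with shCtrl, 665 ± 16.2 with shTRIB3-1 and 632 ± 7.77 with shTRIB3-2 and fell by 0.12 and 0.19 (adjusted p = 0.0035 and 0.00010). With median centring the shTRIB3-1 values of PDIA3 (-0.067) and P4HB (-0.042) did not pass, and with quantile normalization P4HB was at -0.016 with shTRIB3-1 and 0.049 with shTRIB3-2, neither of which passed. PDIA6, an isomerase that also acts on the sensors, was at 0.013 with shTRIB3-1 and -0.10 with shTRIB3-2 (log2, adjusted p = 0.80 and 0.053), neither of which passed, and 25.2% of its exon bases in GENCODE v44 overlap a gene of the opposite strand. The shTRIB3-2 value of PDIA6 passed without shCtrl replicate 1 (-0.14) or shTRIB3-1 replicate 3 (-0.10), and in the fits with voom (-0.10), TPM rescaling (-0.12) or a minimum of 5 FPKM (-0.10).

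ERO1A and ERO1B are the oxidases that recharge the isomerases. ERO1A averaged 30.1 ± 1.22 FPKM with shCtrl, 34.9 ± 0.787 with shTRIB3-1 and 35.7 ± 0.512 with shTRIB3-2 and rose by 0.21 and 0.24 (limma adjusted p = 0.00019 and 5.4e-05). ERO1B was low, at 2.11, 1.91 and 2.15 FPKM with shCtrl, 2.80, 2.77 and 3.06 with shTRIB3-1 and 2.13, 1.96 and 2.19 with shTRIB3-2. It rose with shTRIB3-1 (0.46 ± 0.082, adjusted p = 0.00025), with no overlap, whereas its shTRIB3-2 and shCtrl libraries overlapped (0.022 ± 0.082, adjusted p = 0.82). TXNDC5, a thioredoxin-domain protein of the ER, was measured at 1.79, 2.12 and 2.54 FPKM in shCtrl, a spread that covers the shTRIB3-1 libraries. TXNDC5 had a log2 fold change of -0.015 with shTRIB3-1 (adjusted p = 0.91) and fell by 0.28 with shTRIB3-2 (adjusted p = 0.041). The latter call was lost without shCtrl replicate 2 or 3, shTRIB3-1 replicate 2 or any of the 3 shTRIB3-2 replicates (-0.30 to -0.15), and with median centring (-0.23), with quantile normalization (-0.18) or when all genes above 0 were tested. TXNDC5 values are uncertain, because 60.9% of its exon bases are shared with the readthrough gene BLOC1S5-TXNDC5, which has a row of its own at 0 to 0.0087 FPKM.

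The ERAD genes were divided, with 3 of 7 tested higher and 3 lower with shTRIB3-1, and 4 higher and 3 lower with shTRIB3-2. Of all tested genes, 32.9% and 35.4% were higher and 41.5% and 40.5% lower. The 3 ERAD genes that fell with both hairpins belong to the HRD1 ubiquitin ligase complex: its ligase SYVN1, the adaptor SEL1L and the scaffold HERPUD1. SEL1L was measured at 33.1, 34.6 and 35.3 FPKM with shCtrl, 24.0, 23.9 and 24.4 with shTRIB3-1 and 23.9, 23.3 and 23.6 with shTRIB3-2. Every knockdown library lay below shCtrl by a wide margin compared with the spread, and SEL1L fell by 0.51 ± 0.033 and 0.54 ± 0.033 (log2, SE; limma adjusted p = 3.7e-08 and 1.9e-08). SYVN1 averaged 20.9 ± 1.11 FPKM with shCtrl, 15.0 ± 0.814 with shTRIB3-1 and 16.7 ± 0.692 with shTRIB3-2 and fell by 0.47 and 0.32 (adjusted p = 4.5e-06 and 0.00012). HERPUD1 averaged 83.3 ± 2.48 FPKM with shCtrl, 65.1 ± 2.47 with shTRIB3-1 and 62.8 ± 0.908 with shTRIB3-2 and fell by 0.36 and 0.41 (adjusted p = 1.5e-06 and 3.7e-07).

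The members that rose act on or around that complex. EDEM1, which trims mannose from misfolded glycoproteins, averaged 21.7 ± 0.321 FPKM with shCtrl, 26.2 ± 0.659 with shTRIB3-1 and 28.9 ± 0.459 with shTRIB3-2 and rose by 0.27 and 0.41 (limma adjusted p = 9.9e-06 and 1.9e-07). DERL1, a derlin of the retrotranslocation channel, averaged 20.3 ± 0.527 FPKM with shCtrl, 25.01 ± 0.646 with shTRIB3-1 and 26.5 ± 0.187 with shTRIB3-2 and rose by 0.30 and 0.38 (adjusted p = 5.8e-06 and 5.3e-07). DERL2, another derlin, averaged 12.0 ± 0.667 FPKM with shCtrl, 11.6 ± 0.744 with shTRIB3-1 and 14.2 ± 0.429 with shTRIB3-2 and rose with shTRIB3-2 only (0.25, adjusted p = 0.0015, against -0.048, adjusted p = 0.45, with shTRIB3-1), and the hairpins differed by the direct test between them. OS9, a lectin that reads trimmed glycans, averaged 97.9 ± 0.853 FPKM with shCtrl, 109 ± 2.47 with shTRIB3-1 and 105 ± 3.73 with shTRIB3-2 and rose by 0.16 and 0.10 (adjusted p = 0.00077 and 0.011). Quantile normalization took OS9 to 0.067 and 0.033, neither of which passed. TPM rescaling took the values to 0.10, which passed, and 0.080, which did not. Without shTRIB3-2 replicate 1 the shTRIB3-2 value was 0.075 and did not pass. Median centring took the shTRIB3-1 value to 0.24. OS9 shares 15.9% of its exon bases with a gene of the same strand and 16.6% with genes of the opposite strand.

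EDEM2, a mannosidase that acts before EDEM1, was listed at 0.816, 0.614 and 0.711 FPKM with shCtrl, 0.543, 0.898 and 0.610 with shTRIB3-1 and 0.667, 0.580 and 0.408 with shTRIB3-2, from 27 to 58 fragments a library. The 3 groups overlapped. A row named MMP24-AS1-EDEM2 stood beside it at 0 to 0.049 FPKM. EDEM2 shares 0% of its exon bases with another gene in GENCODE v44, and the annotation the authors counted with is not given in the sources used here.

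Of the 3 translocation genes, SEC61A1 and SSR1 fell and SEC61B did not pass with either hairpin. Of all tested genes, 41.5% and 40.5% fell and 32.9% and 35.4% rose. SEC61A1, the pore of the import channel, averaged 143 ± 2.71 FPKM with shCtrl, 116 ± 1.64 with shTRIB3-1 and 116 ± 1.14 with shTRIB3-2 and fell by 0.31 and 0.30 (limma adjusted p = 6.4e-07 and 6.5e-07). SSR1, a subunit of the complex beside the channel, averaged 49.6 ± 0.471 FPKM with shCtrl, 36.1 ± 0.854 with shTRIB3-1 and 39.2 ± 0.198 with shTRIB3-2 and fell by 0.45 and 0.34 (adjusted p = 3.0e-08 and 4.1e-07). SEC61B, a small channel subunit, averaged 154 ± 10.2 FPKM with shCtrl, 162 ± 11.1 with shTRIB3-1 and 161 ± 6.25 with shTRIB3-2, and its values on the log2 scale of 0.067 (95% confidence interval -0.056 to 0.19) and 0.065 (-0.057 to 0.19) did not pass.

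The promoter elements were set beside these values as a description. The members were listed as genes of the response that these elements classically mark, with earlier results known, so that element and list are not independent. Of the 11 members with an ERSE or ERSE-II, 9 fell, 1 rose and 1 did not pass with shTRIB3-1, and 9 fell, 0 rose and 2 did not pass with shTRIB3-2. Those that fell were HSPA5, HSP90B1, CALR, CANX, CRELD2, XBP1, HYOU1, HERPUD1 and SDF2L1. The remaining holders were ERO1B, which rose with shTRIB3-1 only, and PDIA6, which did not pass with either hairpin. HSPA5, HSP90B1, CALR, CANX, CRELD2, HYOU1 and SDF2L1 are lumenal chaperones or co-chaperones, the role in which 9 of 12 fell with each hairpin. Element and role were not tested apart. Among the 20 tested members with a window and neither element, 8 fell and 7 rose with shTRIB3-1, and 9 fell and 8 rose with shTRIB3-2. Among all tested genes 41.5% and 40.5% fell and 32.9% and 35.4% rose, close to the shares among the members without an element. Median log2 fold changes were -0.30 and -0.41 for the holders and -0.022 and -0.035 for the others, whose values reached from -1.26 (PDIA4 with shTRIB3-2) to 0.86 (CREB3L3 with shTRIB3-1). PDIA4, SEL1L and SYVN1 were thus lower without an exact match to either element in the window, and inexact matches were not searched for. No test was made of the difference between holders and others.

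The wider pathway was taken from a list of 91 other ER genes, of which 89 were tested (CREB3L1 and FKBP2 were below 1 FPKM in most libraries). With shTRIB3-1, 27 of them rose and 45 fell, and with shTRIB3-2 28 rose and 41 fell, with medians of -0.12 and -0.071. As shares, 30.3% and 31.5% rose and 50.6% and 46.1% fell, near the 32.9% and 35.4% that rose and the 41.5% and 40.5% that fell among all tested genes, which are also the background of the smaller groups. The numbers that fell with shTRIB3-1 and with shTRIB3-2 were 11 and 13 of 21 for folding, 12 and 10 of 23 for translocation and processing, 8 and 6 of 12 for retrieval and export, and 7 and 6 of 8 for sensor processing and related factors. For degradation, 9 of 19 rose with each hairpin, and 6 and 5 fell. Only 1 of the 77 other ER genes with a window, SERP1, held an ERSE and none an ERSE-II. UPRE was found in 9 of these 77 genes, beside 2 of the 32 members with a window and 0.927% of all gene symbols with one.

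The PERK branch, the arm of the response that acts on translation, was higher in 4 of its 6 listed genes and lower in 1 with either hairpin, where 32.9% and 35.4% of all tested genes were higher and 41.5% and 40.5% lower. PPP1R15A, the phosphatase subunit that reverses PERK signalling, was measured at 21.4, 19.8 and 19.7 FPKM with shCtrl, 51.9, 56.1 and 49.3 with shTRIB3-1 and 51.7, 54.7 and 58.4 with shTRIB3-2, with no overlap between knockdown and shCtrl libraries. PPP1R15A rose by 1.36 ± 0.055 and 1.43 ± 0.055 (log2, SE; limma adjusted p = 5.4e-10 and 2.7e-10). EIF2AK3, which encodes PERK, averaged 10.9 ± 0.277 FPKM with shCtrl, 15.4 ± 0.8001 with shTRIB3-1 and 16.1 ± 0.697 with shTRIB3-2 and rose by 0.49 and 0.56 (adjusted p = 1.5e-06 and 4.1e-07). DDIT3 (CHOP), a transcription factor of prolonged stress, was measured at 18.9, 18.5 and 17.8 FPKM with shCtrl, 20.3, 23.1 and 21.8 with shTRIB3-1 and 30.6, 30.8 and 33.7 with shTRIB3-2 and rose by 0.24 and 0.78 (adjusted p = 0.0014 and 4.0e-08). Of the DDIT3 exon bases in GENCODE v44, 31.6% lie opposite MARS1 or MBD6 and 8.03% are shared with a gene of the same strand.

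ATF4, the transcription factor that PERK signalling raises chiefly through translation, fell at the mRNA level. It was measured at 52.1, 49.4 and 49.4 FPKM with shCtrl, 37.1, 37.4 and 38.3 with shTRIB3-1 and 29.3, 31.3 and 31.8 with shTRIB3-2, and the 3 groups did not overlap. ATF4 fell by 0.42 ± 0.037 and 0.71 ± 0.037 (log2, SE; limma adjusted p = 6.6e-07 and 4.7e-09). The authors' FPKM of ATF4 was divided by a length of 7716 bases, against 2613 exon bases in GENCODE v44, so that its level is not comparable with that of other genes. Which bases were counted for ATF4 is not known, so that its fold change is uncertain as well.

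Outside the PERK branch, 4 other ER genes passed an absolute log2 fold change of 1 with either hairpin. With the PERK branch included, 5 of the 89 tested other ER genes passed it with shTRIB3-1 and 4 with shTRIB3-2, at adjusted p under 0.05. Among all tested genes the same rule called larger shares, 11.5% and 12.3%. QSOX1, a sulfhydryl oxidase, was measured at 1.30, 1.499 and 1.32 FPKM with shCtrl, 5.36, 4.86 and 4.61 with shTRIB3-1 and 4.66, 4.66 and 4.90 with shTRIB3-2 and rose by 1.77 and 1.72 (limma adjusted p = 1.1e-09 and 1.2e-09). ERLEC1, a lectin of the same ERAD step as OS9, fell by 1.37 with shTRIB3-1 and fell by 1.18 with shTRIB3-2, from 58.6 ± 1.27 FPKM. CREB3L2, an ER-anchored transcription factor related to CREB3L3, fell by 1.24 and fell by 1.04 from 20.6 ± 0.501 FPKM. MLEC, an ER lectin for glucosylated glycans, fell by 1.01 and 0.86 from 41.8 ± 1.33 FPKM. CREB3L2 and ERLEC1 thus fell while CREB3L3 and OS9 rose, although OS9 did not pass with quantile normalization. As with ATF4, the length behind the FPKM of MLEC, 11164 bases, exceeds its 6438 exon bases in GENCODE v44, so that its values are uncertain. Smaller excesses were found for DNAJC3 (6826 against 5590), EDEM1 (7053 against 6737) and CREB3L2 (9508 against 8807).

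Compared directly, the hairpins gave close levels for most members. Between shTRIB3-2 and shTRIB3-1, 6 members were higher and 7 lower in shTRIB3-2, and 20 did not pass, against 25.1% and 20.7% of all tested genes. No member reached an absolute log2 fold change of 1, and 2.08% of all tested genes did so with an adjusted p under 0.05. The median absolute difference was 0.085 for the members and 0.15 for all tested genes. TRIB3 itself was lower with shTRIB3-2 than with shTRIB3-1, by 0.71 ± 0.030 on the log2 scale. With median centring 3 members were higher and 9 lower.

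XBP1 did not pass in this comparison, at -0.0091 (95% confidence interval -0.069 to 0.051), with SEC61A1 at 0.0042 (-0.055 to 0.064). HSPA5 and HSP90B1 did not pass either (-0.036, -0.12 to 0.053, and -0.055, -0.15 to 0.040), but with quantile normalization they were higher in shTRIB3-2, at 0.13 and 0.17, and passed. ERO1B differed most, at -0.44 ± 0.082 (SE; limma adjusted p = 0.00095). PDIA4 (-0.26, adjusted p = 0.00016), CALR (-0.28, adjusted p = 5.7e-05) and PDIA3 (-0.19, adjusted p = 0.00069) were lower still with shTRIB3-2. CREB3L3, which rose with both hairpins, was less raised with shTRIB3-2 (-0.28, adjusted p = 0.00015). DERL2 (0.29, adjusted p = 0.0011), CANX (0.20, adjusted p = 0.00036) and EDEM1 (0.14, adjusted p = 0.0039) were higher with shTRIB3-2. With quantile normalization CALR differed by -0.14 and CANX by 0.31, and both passed.

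Some of these calls rest on single libraries or on the scaling. CRELD2 (-0.20) was not past the test without shTRIB3-1 replicate 1 or 3 or shTRIB3-2 replicate 1 or 3, with values of -0.20 to -0.16. SYVN1 (0.15) was not without shTRIB3-1 replicate 2 or shTRIB3-2 replicate 1 or 3 (0.10 to 0.15), and neither was DNAJC3 (0.12) without the same 3 libraries (0.089 to 0.12). Median centring also ended the calls of SYVN1 (0.12), DNAJC3 (0.092) and SSR1 (0.089), and quantile normalization that of SYVN1 (0.13). Testing all genes above 0 ended those of SYVN1 and CRELD2. In turn ATF6 (-0.13) passed without shTRIB3-1 replicate 3 (-0.17), DERL1 (0.085) without shTRIB3-1 replicate 2 (0.10), and PDIA6 (-0.11) and TXNDC5 (-0.26) without shCtrl replicate 1 or 3, where the difference itself stayed and the shared estimate of the spread changed. ATF6 also passed with median centring (-0.16), quantile normalization (-0.15) and voom (-0.13), PDIA6 with median centring (-0.14), voom (-0.11) and a minimum of 5 FPKM (-0.11), DERL1 with TPM rescaling (0.12) and P4HB with voom (-0.072).

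**Figure D5:**
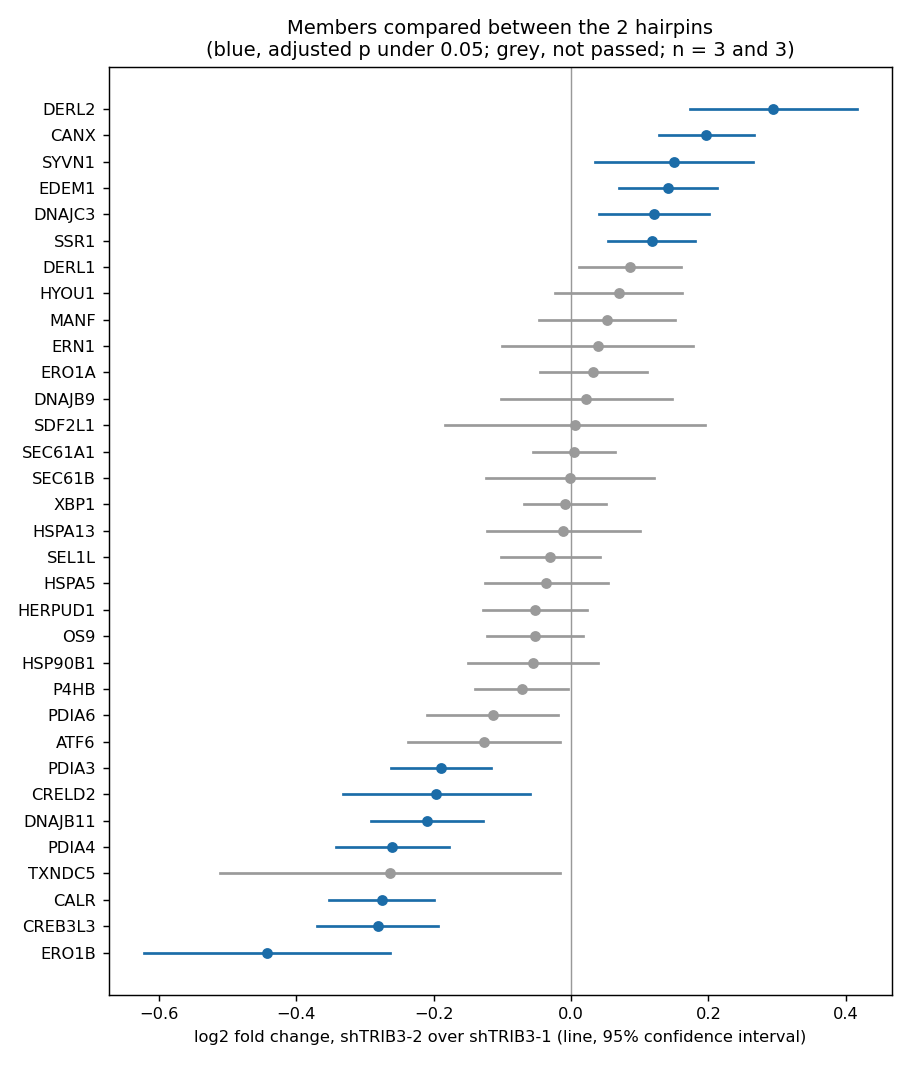
Log2 fold change of shTRIB3-2 over shTRIB3-1 (points) with 95% confidence intervals (lines) for the 33 tested members, ordered by value. Blue marks the 13 members with an adjusted p under 0.05, which run from ERO1B at -0.44 to DERL2 at 0.29.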

How the data were processed

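Gene-level expression was measured by RNA-seq in 9 HepG2 libraries (3 shCtrl, 3 shTRIB3-1, 3 shTRIB3-2). Per the study's methods and the labels' processing notes, the authors aligned reads to GRCh38 with STAR, counted genes with HTSeq, ran R 3.2.0 and deposited FPKM values in 1 table. The annotation release and the strand setting of the counting are not given in the sources used here, and the labels (VAHTS Universal V6 kit) and the study's methods (a strand-specific NEBNext kit) name different library kits. In the deposited FPKM, 24197 of 24204 symbols held whole fragments at a single length (tolerance 0.02), with 34206726 to 36311029 fragments a library.

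The values log2(FPKM + 0.1) of the 11265 symbols at 1 FPKM or more in at least 3 libraries were fitted with limma 3.58.1 (R 4.3.3) as 3 group means with a trended prior, and p-values were adjusted by Benjamini-Hochberg over all tested genes. All members were named. Values of every library were given for HSPA5, ERN1, XBP1, ATF6, members with adjusted p under 0.05 and an absolute log2 fold change over 0.5 with either hairpin, and EDEM2, which was below the filter. The values of ERO1B were also given by library, a choice made after they were seen. Other ER genes were named past an absolute log2 fold change of 1, with EIF2AK3, ATF4 and DDIT3 in addition. The members and lists were chosen with earlier results of these data known. The fit was tested on simulated data. Alternatives were a pseudocount of 1, other filters, 3 other scalings, a replicate block, voom on the fragments and leaving out each library. Exon overlaps came from GENCODE v44, and tables were made with pandas 2.3.3 (Python 3.11.15).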

Additional observations from a re-analysis of the deposited data

Results flagged for a closer look

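The effects of the hairpins differed for 13 of the 33 tested members by the direct limma test of shTRIB3-2 against shTRIB3-1 (Benjamini-Hochberg adjusted p under 0.05), where the shCtrl libraries cancel. Higher in shTRIB3-2 were 6 members, with log2 fold changes over shTRIB3-1 in parentheses: DERL2 (0.29), CANX (0.20), SYVN1 (0.15), EDEM1 (0.14), DNAJC3 (0.12), SSR1 (0.12). Lower in shTRIB3-2 were 7 members: ERO1B (-0.44), CREB3L3 (-0.28), CALR (-0.28), PDIA4 (-0.26), DNAJB11 (-0.21), CRELD2 (-0.20), PDIA3 (-0.19). All of them lay under 0.5 on the log2 scale. As shares, 18.2% of the tested members were higher and 21.2% lower, where 25.1% and 20.7% of all tested genes were. With median centring SYVN1 (0.12), DNAJC3 (0.092) and SSR1 (0.089) did not pass, nor did SYVN1 with quantile normalization (0.13). The lectin pair CALR and CANX, and the HRD1 ligase SYVN1 and the isomerase PDIA4, were on opposite sides of this comparison. TRIB3 mRNA differed between the hairpins as well (-0.71), and its part in these differences was not tested. With 3 libraries a group no search for single outlying libraries was made.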

How the results depend on the processing

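Of 1677 values of single members under 17 alternatives, 1565 kept their direction and side of the threshold, 43 were no longer past it, 26 became so and 43 turned direction. The falls of HSPA5, HSP90B1, CRELD2, XBP1, PDIA4 and SEL1L and the rises of ERN1, CREB3L3 and DNAJB9 held under all 17. The count of members past an absolute log2 fold change of 1 with shTRIB3-1 was 1 (PDIA4) in place of 0 with TPM rescaling and with quantile normalization, and 0 to 1 when single libraries were left out. With median centring 3 members in place of 6 were higher in shTRIB3-2 than in shTRIB3-1. For the other ER genes this comparison gave 36 higher and 11 lower with TPM rescaling and 22 and 18 with median centring. The reported fit gave 33 and 17, or 37.1% and 19.1% of the 89 tested, beside 25.1% and 20.7% of all tested genes. No scaling moved the median of all genes by more than 0.080 on the log2 scale. Some abundant members moved by more. With quantile normalization the shTRIB3-2 values went from -0.49 to -0.24 for CALR, from -0.54 to -0.33 for HSP90B1 and from -0.19 to 0.049 for P4HB.

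Most values that turned direction lay near 0, and apart from HSPA5 and HSP90B1 none of them passed the test. With TPM rescaling these were, for shTRIB3-1, PDIA6 -0.041, for shTRIB3-2, ERO1B -0.00075, and between the hairpins HSPA13 0.019, SEC61B 0.030, SEL1L 0.00074 and XBP1 0.022. With median centring they were, for shTRIB3-1, DERL2 0.032, DNAJC3 0.051 and TXNDC5 0.065, for shTRIB3-2, ATF6 0.029 and DNAJB11 0.0035, and between the hairpins DNAJB9 -0.0065, SDF2L1 -0.023 and SEC61A1 -0.024. With quantile normalization they were, for shTRIB3-1, DERL2 0.019, PDIA6 -0.073 and TXNDC5 0.062, for shTRIB3-2, ATF6 0.030 and P4HB 0.049, and between the hairpins HSP90B1 0.17, HSPA5 0.13, P4HB 0.064, SDF2L1 -0.011, SEC61B 0.046 and XBP1 0.053. Leaving out single libraries gave ranges across 0 for shTRIB3-1 in PDIA6 -0.030 to 0.057, TXNDC5 -0.13 to 0.11, DERL2 -0.094 to 0.0054 and DNAJC3 -0.055 to 0.0031, for shTRIB3-2 in ERO1B -0.027 to 0.067, and between the hairpins in SDF2L1 -0.037 to 0.057, SEC61A1 -0.0039 to 0.016, SEC61B -0.057 to 0.041, DNAJB9 -0.00085 to 0.048 and HSPA13 -0.049 to 0.016. The cause was not tested.

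Libraries with the same replicate number showed only weak correlations of their deviations (-0.074 to 0.093 over 9 pairs, and -0.076 to 0.048 over 18 pairs with different numbers). No pairing by number was thus clear, but with 3 libraries a group this check cannot exclude one. With a replicate block, 9 members rose and 18 fell with shTRIB3-1, 9 rose and 20 fell with shTRIB3-2, and 6 were higher and 8 lower in shTRIB3-2 than in shTRIB3-1. The call that the block added was PDIA6, with shTRIB3-2 (-0.10) and between the hairpins (-0.11). Among the other ER genes the replicate block gave 28 higher and 44 lower, 29 and 42, and 34 and 18 in the same order. Replicates differed by more than sampling noise (chi-square per degree of freedom 3.13 to 7.54).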
